A study of Mus musculus with 3 samples.

Results

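The RNAP2 peaks described here lay between protein-coding genes and had no Med12 peak on them. They numbered 2331 of the 20479 peaks that were called for RNA polymerase II (RNAP2), or 11.4%. They were selected on the 2 measured peak lists and on the annotation: a peak had to be narrower than 4000 bp, to share no base with any of the 10634 Med12 peaks and with no protein-coding gene, and to lie outside the 1 kb on each side of every annotated transcript start and the 2 kb on each side of every protein-coding 3′ end. Of the 20479 peaks, 20075 passed the width limit, 15796 of these had no Med12 peak, 2855 lay outside coding genes, 2515 of those were clear of starts, and 2331 were also clear of 3′ ends. The scores and the absence of Med12 chose these peaks and are given below as a description only.

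RNAP2 and Med12 were immunoprecipitated from chromatin of distal forelimbs (the future wrist and hand) that had been collected from mouse embryos after normal gestation. The sample labels give embryonic day E12.5 and the design text of the series gives E11.5. The study's methods give E12.5 limb tissue as wild type, strain and number of embryos were not given in the sources used here, and no mutant or treated group was part of the comparison. The RNAP2 antibody named in the labels (Abcam ab5131) recognizes the repeats of the largest subunit when phosphorylated at serine 5, a form typical of polymerase near starts. The RNAP2 library, the Med12 library and an input library without antibody were 1 sample each, and the input was not used here. The distal forelimb is a mixture of mesenchyme, ectoderm, vessels, blood and nerve, so that a peak cannot be assigned to a cell type. A peak's absence from the Med12 list means that the caller's threshold was not passed there, not that Med12 was absent.

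RNAP2 transcribes protein-coding genes and many noncoding ones, and Mediator is the large complex that carries signals from transcription factors at enhancers and promoters to the polymerase. Med12 belongs to the part of Mediator that also holds a cyclin-dependent kinase. Distal enhancers commonly carry both RNAP2 and Mediator. Vertebrate promoters, particularly those of broadly expressed genes, often lie in CpG islands, stretches rich in G and C in which the CpG dinucleotide has not been depleted as it has in the rest of the genome. Polymerase that has passed a polyadenylation site can also stay on the template beyond the annotated gene.

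The sequences of 8 of the high-scoring peaks are shown because base composition differed between peaks without and with Med12. All were read from the mm9 reference and are written 5′ to 3′, with each CpG dinucleotide in capitals. The first 4 run from 150 bases before to 50 bases after a transcript start that RefSeq lists inside the peak and that is not within 1 kb of a start in the annotation used for the selection, on the strand of that transcript. Chaserr is at chr7:80703232-80703431 on the minus strand, Rnf4 at chr5:34678749-34678948 on the plus strand, Zfp869 at chr8:72240752-72240951 on the minus strand and Gm33989 at chr7:46807718-46807917 on the plus strand. They hold 17, 20, 6 and 10 CpGs in 200 bases.
Chaserr: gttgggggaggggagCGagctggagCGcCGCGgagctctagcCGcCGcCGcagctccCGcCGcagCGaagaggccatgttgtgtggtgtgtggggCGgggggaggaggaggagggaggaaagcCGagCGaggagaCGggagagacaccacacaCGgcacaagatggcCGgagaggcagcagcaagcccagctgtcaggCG
Rnf4: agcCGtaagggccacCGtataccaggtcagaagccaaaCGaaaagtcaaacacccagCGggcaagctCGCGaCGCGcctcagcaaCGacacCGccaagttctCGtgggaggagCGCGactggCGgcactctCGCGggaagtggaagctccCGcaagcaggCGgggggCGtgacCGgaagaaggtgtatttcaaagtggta
Zfp869: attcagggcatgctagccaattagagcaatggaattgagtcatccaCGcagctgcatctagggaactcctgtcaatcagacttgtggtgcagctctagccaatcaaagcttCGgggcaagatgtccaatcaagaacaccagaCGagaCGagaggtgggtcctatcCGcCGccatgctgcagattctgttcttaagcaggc
Gm33989: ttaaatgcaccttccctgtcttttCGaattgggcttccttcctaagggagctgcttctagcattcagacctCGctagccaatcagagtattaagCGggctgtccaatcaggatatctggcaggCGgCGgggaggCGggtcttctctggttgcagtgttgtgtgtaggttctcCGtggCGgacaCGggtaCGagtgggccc

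The other 4 sequences are the central 200 bases, on the plus strand, of high-scoring peaks at which no RefSeq start was found, named after the nearest coding gene. The A830005F24Rik site is chr13:48641410-48641609, the Ccnl1 site chr3:65778490-65778689, the Id3 site chr4:135691046-135691245 and the Nr4a1 site chr15:101084529-101084728. They hold 21, 12, 13 and 37 CpGs in 200 bases, and the last of them, with a GC content of 82.5% and an observed to expected CpG ratio of 1.12, is the densest.
A830005F24Rik site: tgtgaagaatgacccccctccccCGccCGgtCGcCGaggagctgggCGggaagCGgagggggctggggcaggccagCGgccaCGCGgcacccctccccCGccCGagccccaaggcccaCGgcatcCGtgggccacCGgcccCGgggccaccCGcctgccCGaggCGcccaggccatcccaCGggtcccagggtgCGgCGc
Ccnl1 site: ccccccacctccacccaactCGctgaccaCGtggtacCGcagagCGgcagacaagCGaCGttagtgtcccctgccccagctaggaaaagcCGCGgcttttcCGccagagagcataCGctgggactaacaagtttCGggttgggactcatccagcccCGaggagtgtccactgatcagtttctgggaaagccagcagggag
Id3 site: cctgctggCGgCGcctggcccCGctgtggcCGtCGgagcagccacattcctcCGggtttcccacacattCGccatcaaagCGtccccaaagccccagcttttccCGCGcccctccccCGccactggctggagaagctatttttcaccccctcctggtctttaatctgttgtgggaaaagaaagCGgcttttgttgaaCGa
Nr4a1 site: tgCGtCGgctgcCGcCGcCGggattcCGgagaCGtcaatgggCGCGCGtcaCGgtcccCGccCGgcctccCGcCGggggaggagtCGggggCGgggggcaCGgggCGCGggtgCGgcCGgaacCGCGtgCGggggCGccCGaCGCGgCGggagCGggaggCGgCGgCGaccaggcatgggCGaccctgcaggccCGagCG

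The scores of the 2331 peaks were mostly low. The score is 10 times the negative log10 of the p-value given by the authors' peak caller, so that 50 corresponds to a p-value of 1e-05. It ran from 40 to 3100 with a median of 67.0 and quartiles of 48.98 and 112. Of the 2331 peaks, 679 scored 100 or more (29.1%), against 56.7% of all RNAP2 peaks, and 70 scored 500 or more. Among the 1427 intergenic RNAP2 peaks that did overlap Med12, chosen by the same rule otherwise, the median was 133 and 62.4% scored 100 or more. Intragenic RNAP2 peaks without Med12 (4829 peaks) had a median of 63.8, close to that of the intergenic ones. The plot of cumulative scores shows these differences, which belong to the selection and were not tested.

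**Figure D1:**
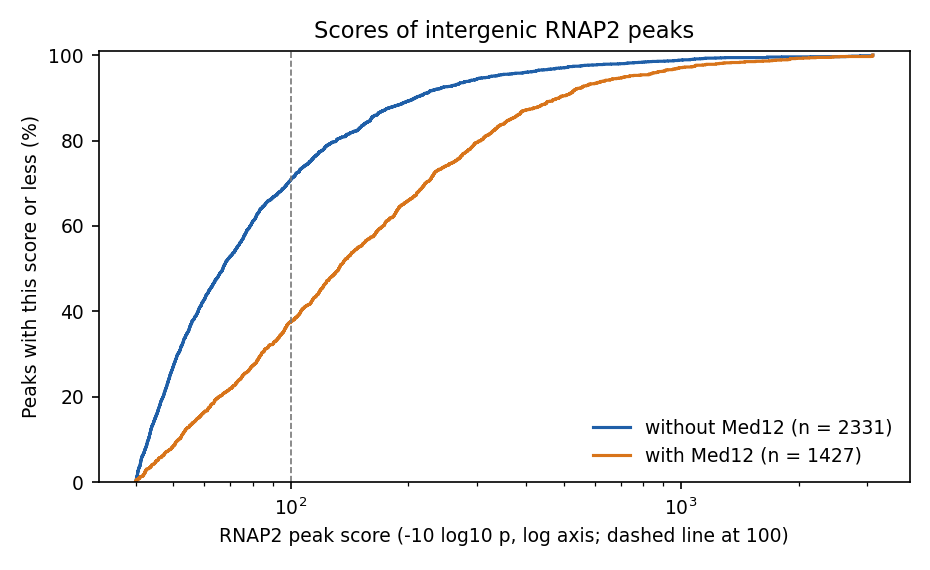
Cumulative distribution of RNAP2 peak scores, in percent of peaks on the y axis against score on a log x axis, for 2331 intergenic peaks without Med12 (blue) and 1427 with Med12 (orange). At the dashed line, 29.1% of the former and 62.4% of the latter scored 100 or more.

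Peak width ran from 535 to 3945 bp with a median of 1128 bp. The peaks lay on 20 chromosomes, from 0.180 per Mb on the X chromosome to 1.50 per Mb on chromosome 13. The nearest Med12 peak was a median of 50685 bp away, and 260 peaks (11.2%) had one within 5 kb. At the limits of the rule, the widest peak kept (3945 bp, near Chd2, score 2746) stood beside a peak of 4021 bp near Six3 with a score of 420, the narrowest of 11 that the width limit alone removed. The peak nearest to a Med12 peak was 14 bp from it, near Rnd3 (score 86.3), and the smallest overlap that removed a peak was 7 bp (score 41.8). The peak nearest to a transcript start was 1032 bp from it, near Irs1 (score 65.5), while one 998 bp from a start at Hoxc12 (score 90.0) was left out. For 3′ ends the values were 2006 bp at Trps1 (score 88.1) and 1995 bp at Nkpd1 (score 52.2).

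Most of the highest-scoring peaks without Med12 had the composition of CpG islands. Here a CpG-rich centre has a GC content above 50% and an observed to expected CpG ratio above 0.6 over the central 300 bases. Of the 70 peaks that scored 500 or more, 45 (64.3%) had such a centre, among them the 4 sites named after A830005F24Rik, Ccnl1, Id3 and Nr4a1 above. Over all scores, 268 of 2331 (11.5%, 95% Wilson interval 10.3 to 12.9) were CpG-rich. The share was 3.71% in intergenic peaks with Med12 (53 of 1427), 1.74% in intragenic peaks without Med12, 74.5% in the 9536 RNAP2 peaks at transcript starts and 0.767% in 25571 windows placed every 100 kb along the genome. The difference of 7.78 percentage points from peaks with Med12 had a 95% Newcombe interval of 6.12 to 9.39. Over whole peaks in place of their centres the difference was 4.59 points (3.30 to 5.85). These intervals cover the counting of peaks within a pair of lists, not the spread between embryos or libraries, and were not adjusted for the 27 measures compared, of which 10 had an interval that left out 0.

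**Figure D2:**
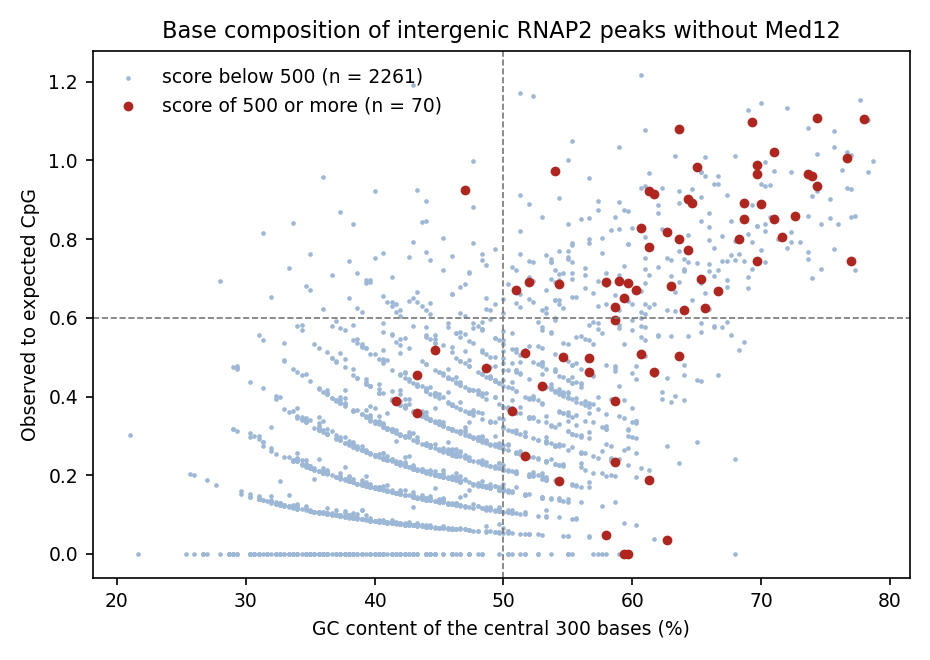
GC content of the central 300 bases (x axis, %) against the observed to expected CpG ratio (y axis) for each intergenic RNAP2 peak without Med12. Dashed lines mark 50% and 0.6, and 45 of the 70 peaks that scored 500 or more (red) lie above both, against 268 of all 2331.

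The share of CpG-rich centres was higher in each higher class of score in the peaks without Med12 and stayed below 10% in those with Med12, although the latter had the higher scores overall. Between scores of 40 and 50 it was 2.997% without Med12 and 2.46% with Med12, a difference whose interval included 0 (0.538 points, -4.11 to 2.84). It was 8.15% against 1.205% from 50 to 100, 15.4% against 3.21% from 100 to 200, and 30.6% against 5.44% from 200 to 500. At 500 or more it was 64.3% against 9.56%, a difference of 54.7 points (41.5 to 65.7). With base composition taken over the whole peak this last difference shrank to 14.03 points (3.84 to 25.7). Read the other way, 77.6% of the 58 CpG-rich intergenic peaks with a score of 500 or more had no Med12 peak, against 16.9% of the 148 that were not CpG-rich. In the whole list, 15796 of the 20075 RNAP2 peaks narrower than 4000 bp had no Med12 peak. The lack of Med12 was part of the selection, so these shares are a description only.

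**Figure D3:**
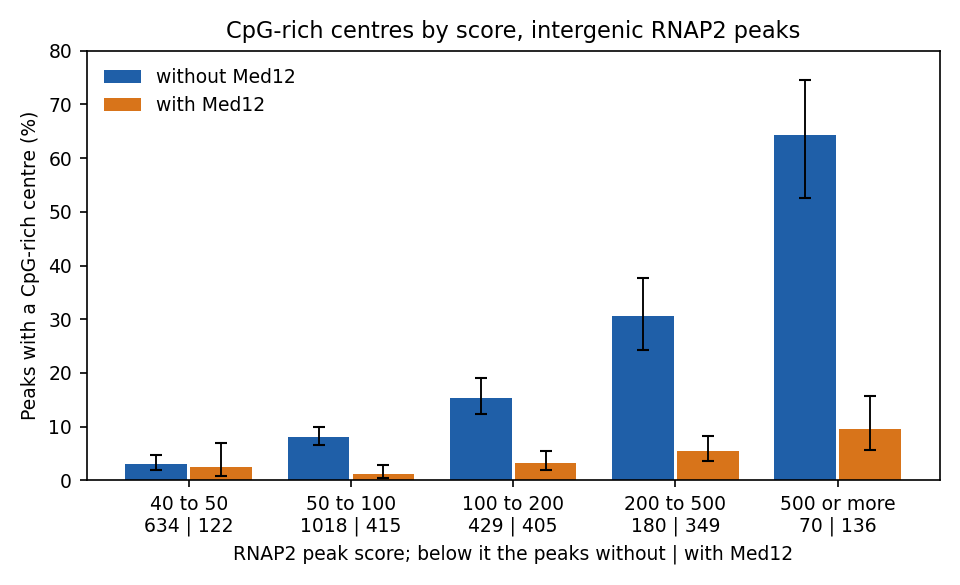
Share of peaks with a CpG-rich centre (y axis, %) in classes of RNAP2 score (x axis) for intergenic peaks without Med12 (blue) and with Med12 (orange). Bars give shares and lines 95% Wilson intervals, and the classes part from a score of 50 on, up to 64.3% against 9.56% in the highest.

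Of the 28 peaks that scored 1000 or more, 22 were CpG-rich, and 4 peaks shared the highest value of 3100, a score held by 311 RNAP2 peaks in the whole list and exceeded by 18. The first of the 4 lay at chr13:48640354-48642665, 31414 bp from the start of A830005F24Rik and 112453 bp from the nearest Med12 peak, with a GC content of 77.0%. The second, at chr6:117828708-117830638, lay beyond the 3′ end of Zfp239, which encodes a zinc finger protein, and had the RefSeq starts of the uncharacterized genes Gm38882 and Gm38883 within 1 kb. The third, at chr8:72239825-72241389, lay 5201 bp before the annotated start of Zfp869 and held the RefSeq start of that gene printed above. The fourth, at chr7:117306960-117308919, lay 41095 bp from Wee1, the kinase that holds back entry into mitosis, and was not CpG-rich (GC content 56.7%, CpG ratio 0.499). The fifth peak in order, with a score of 2885, held the RefSeq start of Rnf4, a ubiquitin ligase that acts on sumoylated proteins, 7874 bp from the nearest annotated coding start, which was that of Rnf4 itself.

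A pair of peaks near Chd2, which encodes a chromatin remodelling enzyme, also ranked among the highest. A peak of 3945 bp at chr7:80700884-80704828 scored 2746 and held the start of Chaserr, a noncoding RNA gene next to Chd2, 14251 bp from the Chd2 start. Another, at chr7:80761489-80764680, scored 2688, lay 74856 bp from the Chd2 start and held no RefSeq start. Both were CpG-rich, with GC contents of 73.7% and 68.7%, and their nearest Med12 peaks were 11460 and 9049 bp away. Chd2 was the nearest coding gene of 5 peaks without Med12, with a median score of 276, and of 2 with Med12.

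Peaks that were not CpG-rich had a median score of 63.1, against 134 for the CpG-rich ones. After the site near Wee1, the highest of them lay at chr14:76233527-76235405 near Tpt1, a widely expressed and abundantly translated gene (score 1814, GC content 53.0%). Next came a site at chr13:60197708-60200482, 78145 bp from Gas1, which encodes a co-receptor for hedgehog ligands (score 1660, GC content 43.3%). It was 11065 bp from a Med12 peak with a score of 311, and 25.1% of its words of 32 bases also occurred elsewhere in the genome. The lowest of all, with scores up to 40.03, lay near 1700017G19Rik, Gramd3 and Atf3, at centres with GC contents of 41.7%, 43.3% and 43.7%.

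Some of these peaks lay at transcript starts that were not in the annotation used for the rule. RefSeq promoter sequences (build GRCm38.p6, 32851 in the table) were matched to mm9 by the 60 bases at the start, and 178 peaks (7.64%, 6.63 to 8.79) had such a start within 1 kb, 132 of them inside the peak. The share was 29.5% among CpG-rich peaks (79 of 268) and 4.799% among the others (99 of 2063), a difference of 24.7 points (19.4 to 30.5). The matches covered 186 gene symbols, of which 96 began with Gm, 16 ended with Rik and 22 began with Zfp, and 55 had a gene of the same name in the annotation, so that the start found was a further one. Intergenic peaks with Med12 had a share of 6.31%, and the difference of 1.33 points had an interval that included 0 (-0.383 to 2.95). For the remaining CpG-rich peaks no start was matched in this table.

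Starts of known genes that the annotation placed elsewhere included those of Il6st, the signal-transducing receptor subunit of the interleukin-6 family (score 759, 10208 bp from the annotated start), and Hdac4, a histone deacetylase that restrains chondrocyte maturation (score 610, 31655 bp). Others were Tnrc6b, a protein of microRNA silencing (score 732), Tnc, which encodes the matrix protein tenascin-C (score 464, 25670 bp) and Zbtb18, a zinc finger repressor (score 473, within the lincRNA gene Gm17407). B930059L03Rik, 9134 bp from the start of the dynein heavy chain gene Dync1h1, had a score of 1663. All 6 of these peaks were CpG-rich, but they were picked as examples. The peak at the RefSeq start of Smug1 (score 634) was not, with a CpG ratio of 0.594. Of all 178 peaks near a RefSeq start, 79 were CpG-rich. The site of Hdac4 was 1772 bp from a Med12 peak with a score of 56.2, while the nearest Med12 peak to that of Tnc was 287858 bp away.

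Among the CpG-rich peaks, genes for zinc finger proteins of the Zfp series were often the nearest coding genes, a pattern that was noticed after the values had been seen. They were nearest to 30 of the 268 CpG-rich peaks (11.2%, 7.95 to 15.5), and they made up 1.67% of the coding genes in the annotation. Over all 2331 peaks the share was 2.75% (2.16 to 3.49), close to the 2.31% (1.65 to 3.23) of intergenic peaks with Med12. CpG-rich peaks of other groups were not counted in this way. Examples with a matched RefSeq start were Zfp964 (score 1059), Zfp799 (score 717) and Zfp873 (score 556). Zfp445 (score 529) was one more, at a centre with a GC content of 47.0% that missed the CpG-rich limits. The genes of this family lie in clusters and resemble each other in sequence, and 8.67% of the words of 32 bases in the Zfp964 and Zfp873 peaks and 8.04% in the Zfp799 peak occurred elsewhere.

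Relative to genes, peaks without Med12 lay closer than those with Med12. The median distance to a coding start was 60161 bp, against 105686 bp with Med12, and 16.3% against 7.01% lay within 10 kb of one. Within 10 kb beyond a coding 3′ end there were 259 peaks (11.1%), against 5.12% with Med12, a difference of 5.995 points (4.24 to 7.68). With 5 kb in place of the 1 and 2 kb flanks that difference fell to 2.29 points (0.889 to 3.63). Within 10 kb before a coding start there were 303 peaks (13.0%), against 5.68%, a difference of 7.32 points (5.46 to 9.12). Intragenic peaks without Med12 had 12.59% there, and the interval of that difference included 0 (0.408 points, -1.215 to 2.098). Beyond a 3′ end the intragenic peaks had 3.85% (difference 7.26 points, 5.915 to 8.69). Of 450 peaks near one kind of gene end only, 203 (45.1%, 40.6 to 49.7) lay beyond a 3′ end. With both kinds of end counted from 2 kb, an alternative chosen after seeing the data, the share was 209 of 428 (48.8%, 44.1 to 53.6), and its interval included 50%.

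The 5 highest-scoring peaks beyond 3′ ends were all CpG-rich. Besides the site at Zfp239 they included that of B930059L03Rik near Dync1h1 (score 1663), one near Myoz1 (score 1004) and one near 2810008M24Rik (score 869). The sites near Dync1h1 and 2810008M24Rik also lay within 10 kb before a coding start. The nearest coding gene itself had an RNAP2 peak within 1 kb of a start for 57.1% of peaks without Med12 and 59.5% of those with Med12, and the interval of the difference included 0 (-2.44 points, -5.67 to 0.815). The same share was 83.7% for intragenic peaks without Med12 and 98.3% for peaks within 1 kb of a transcript start. Of all 22380 coding genes in the annotation, 42.2% had an RNAP2 peak within 1 kb of a start.

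**Figure D4:**
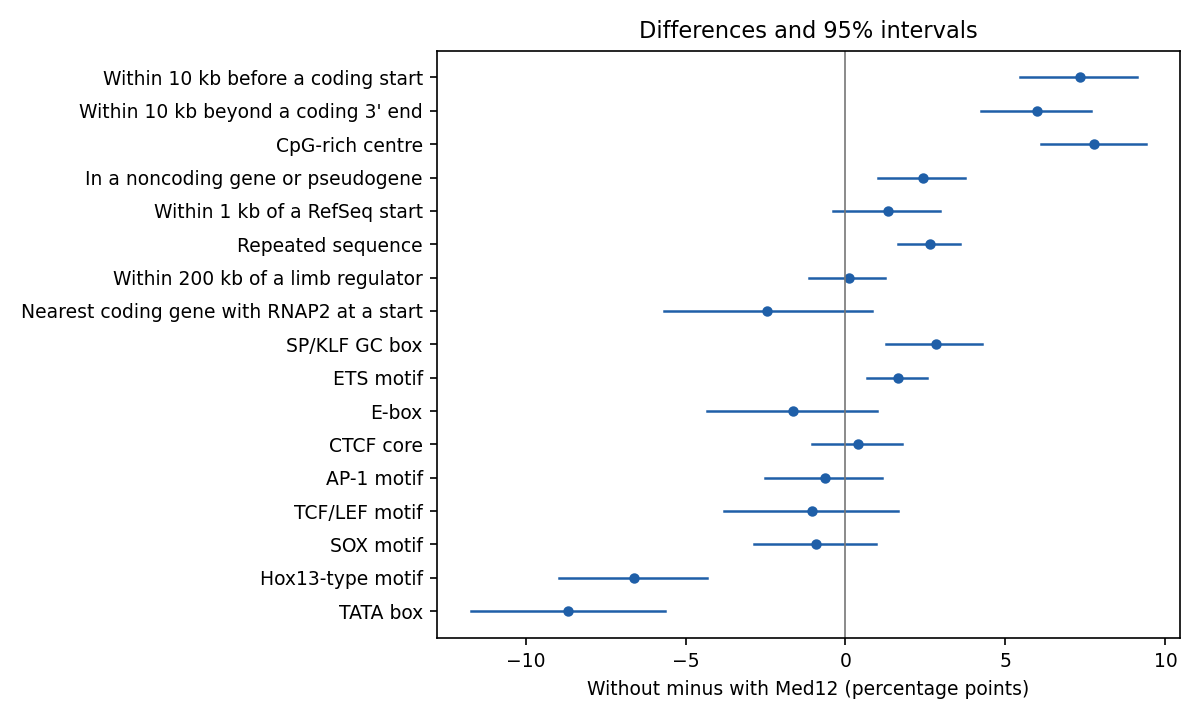
Share in intergenic RNAP2 peaks without Med12 minus share in those with Med12, in percentage points on the x axis, for 17 of the 27 measures compared. Points are differences and lines 95% Newcombe intervals. CpG-rich centres and nearness to gene ends lie to the right of 0, and Hox13-type and TATA matches to the left.

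Consecutive peaks less than 10 kb apart were uncommon, and 2008 of the 2331 stood alone. The longest run had 9 peaks over 27629 bp, from 139832392 to 139860020 on chromosome 1, and began 7644 bp from the start of A130050O07Rik. Its scores, from the gene outwards, were 193, 75.6, 185, 48.7, 54.7, 64.1, 56.5, 71.8 and 103. The centres had GC contents from 29.0% to 51.7%, none was CpG-rich, and no other RNAP2 peak and no Med12 peak lay inside the run. The next runs had 4 peaks each. One was near Gm9953 (scores 48.96 to 100.2) and included 2 Med12 peaks between its members, and another lay between Ppp2r4 and Ier5l (scores 43.2 to 155) and included none.

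The nearest coding genes that recurred most, after A130050O07Rik with 11 peaks, included Gm11678 and Nr2f2 with 9 each and Nr2f1, Sox4 and Prickle1 with 7 each. Nr2f1 and Nr2f2 encode related orphan nuclear receptors of the COUP-TF type, and Sox4 a transcription factor of mesenchymal and neural progenitors. Peaks near Nr2f2 reached a score of 340 with a median of 90.8, and 1 further intergenic peak there had Med12. Those near Nr2f1 had a median of 81.5, with 0 further peaks with Med12, and those near Sox4 a median of 121, with 2. Further intergenic peaks with Med12 numbered 5 near A130050O07Rik, 6 near Gm11678 and 2 near Prickle1. Mtx2 and Hnrnpa3 were also nearest to 7 peaks without Med12 each, and to 5 and 2 with it.

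Annotated noncoding genes or pseudogenes held 138 peaks (5.92%), against 3.50% of the peaks with Med12, a difference of 2.42 points (1.01 to 3.75). By type, 85 peaks lay in lincRNA genes, 52 in processed transcripts and 2 in pseudogenes, and a peak could fall in more than one type. A330033J07Rik, a lincRNA gene, held a peak with a score of 1120 at chr13:48322392-48324199, 32596 bp from Id4, and 1810019N24Rik held one with a score of 1137 near Zfp324. Sequence repeated elsewhere made up over 50% of the words of 32 bases in 89 peaks (3.82%), against 1.19% with Med12 (difference 2.63 points, 1.63 to 3.59). The highest-scoring of these lay near Hrh1 (score 956, 58.0% of words) and Eci2 (score 812, 59.1%), at centres with CpG ratios of 0 and 0.0484. Short reads from such sequence may match several places, and its part in these scores was not tested. Without the peaks of repeated sequence, the difference in CpG-rich share at scores of 500 or more was 58.6 points (45.1 to 69.3).

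A list of 85 genes known to regulate limb patterning and growth was compared with the peaks, and 82 of the genes were found in the annotation. No more than 200 kb separated 79 of the 2331 peaks (3.39%) from the start of one of them, against 47 of 1427 (3.29%) with Med12. The difference was 0.0955 points (-1.15 to 1.24). Intragenic peaks without Med12 had 3.54% that near (difference -0.152 points, -1.02 to 0.796). RNAP2 peaks at transcript starts had 2.41% (difference 0.977 points, 0.239 to 1.84). A peak without Med12 lay that near to 50 of the genes and one with Med12 to 40. These counts come from groups of unequal size (2331 and 1427 peaks). A peak near neighbouring genes was also counted for each of them, as 1 peak with a score of 460 was for Hoxa9, Hoxa10, Hoxa11, Hoxa13 and Evx1. Tbx3 and Tbx5, T-box genes of digit and forelimb identity, had 8 and 7 such peaks without Med12, with the same highest score of 141. Peaks may be shared between these counts. Prrx2, a homeobox gene of limb mesenchyme, had 6.

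The highest of the limb-gene peaks lay 1682 bp before the start of Msx2, a homeobox gene that responds to BMP signals in limb mesenchyme and ectoderm. It was at chr13:53570126-53572483, scored 2642 and was CpG-rich, with another RNAP2 peak 675 bp away and a Med12 peak, with a score of 41.9, 9005 bp away. The peak at Id3, which encodes an inhibitor of basic helix-loop-helix factors and also responds to BMP, scored 1655 and lay 7081 bp before the start and 3651 bp from a Med12 peak with a score of 128. At Twist1, a helix-loop-helix gene required in limb mesenchyme, a peak with a score of 487 lay beyond the gene, 908 bp from a Med12 peak with a score of 72.1. The highest peak within 200 kb of Prrx2 scored 279, was CpG-rich and lay 126427 bp from its start, nearest to 1700001O22Rik. That of Spry1, an inhibitor of FGF signalling, scored 208 at 128856 bp and was not CpG-rich. Scores of 240, 238, 219 and 215 were found for the highest peaks at Meis2, Irx5, Id1 and Sp8. None of these 4 was CpG-rich.

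At lower scores, Irx3 had a CpG-rich peak in the lincRNA gene D230002A01Rik, 2891 bp before the start, with a score of 204. Sp9, Prrx1, Lmx1b, Dusp6 and Shox2 had peaks with scores from 182 down to 154, and the peak at Prrx1 was 299 bp from a Med12 peak with a score of 219. Prrx1 is a homeobox gene of limb mesenchyme, Lmx1b specifies dorsal identity, Sp8 and Sp9 act in the apical ectoderm, and Dusp6 is a target and inhibitor of FGF signalling. Within 200 kb of Meis2, Fgf10, Gli3 and Hand2 there were 4, 3, 2 and 2 peaks without Med12 and 0 intergenic peaks with it. Irx3, Prrx1 and Sall1 were among genes of the list that went the other way. They had 1, 2 and 0 peaks without Med12 and 3, 3 and 2 with it. These genes were picked by their counts, which are too small for a comparison gene by gene.

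Marker genes of other cells and states were compared in the same way. Peaks within 200 kb of muscle genes numbered 15 (0.644%), against 1 (0.0701%) with Med12, a difference of 0.573 points (0.161 to 0.993). Several of the 15 may lie near the same gene, and the interval takes no account of that. The numbers were 14 for cartilage and bone genes, 7 for endothelium and blood genes and 3 for ectoderm genes, and each of these differences from peaks with Med12 had an interval that included 0. Immediate early genes, which respond rapidly to growth factors and stress, had 22 peaks (0.944%), against 0.490% with Med12 (difference 0.453 points, -0.156 to 0.997). The share was 0.331% in intragenic peaks without Med12 (difference 0.613, 0.232 to 1.11). It was 1.21% in RNAP2 peaks at transcript starts, and the interval of that difference included 0 (-0.262, -0.662 to 0.259). Nr4a1, an orphan nuclear receptor of this class, had 2 CpG-rich peaks with scores of 1054 and 905, 11690 and 19655 bp from its start. Jun, a subunit of AP-1, was the nearest coding gene of 5 peaks with scores up to 726 and of 0 with Med12. Btg2, an antiproliferative gene, had a CpG-rich peak with a score of 1156 at 13101 bp and one at the RefSeq start of Gm19497 with a score of 661.

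In the 850 kb upstream of Hoxa13 there were 3 intergenic peaks without Med12 and 6 with Med12, among 32 RNAP2 peaks of all kinds. HoxA genes pattern the distal limb, and Hoxa13 marks the future hand. The highest of the 3, at chr6:52214082-52217389, scored 460 and lay in the lincRNA gene Gm15053, 3207 bp before the start of Hoxa13 and 254 bp from another RNAP2 peak. The second, at chr6:52245828-52246957, scored 75.3 and was 1114 bp from a Med12 peak with a score of 83.5. The third, at chr6:52270696-52272605, scored 350 and lay beyond the 3′ end of Evx1, with a Med12 peak 9147 bp away. None was CpG-rich.

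On the HoxD cluster, the 850 kb beyond Hoxd13 had 8 peaks without Med12 and 14 with Med12, and the 850 kb on the Hoxd1 side had 14 and 7. On the Hoxd13 side the scores of the 8 were 234, 106, 76.5, 79.4, 67.1, 49.7, 52.4 and 73.4, in order towards the cluster. Of these, 4 lay within 2 kb of a Med12 peak, at distances of 1330, 193, 519 and 537 bp. The last, at chr2:74455280-74456509, was 537 bp from a Med12 peak with a score of 693 and 55 bp from another RNAP2 peak. On the Hoxd1 side, which faces Mtx2 and Hnrnpa3, the scores ran from 46.2 to 173, and 5 of the 14 lay in processed transcript genes, 3 of them in A330043C09Rik. No peak of either side was CpG-rich.

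Matches to short motifs were counted on both strands of the central 300 bases. They are descriptions of the letters and not of bound factors. A Hox13-type match, CAATAAA, a sequence preferred by the HOX13 proteins of the distal limb, was present in 4 of the 25 peaks of the HoxA and HoxD intervals. These 4 are printed here on the plus strand of mm9, as 121 bases centred on the match, with the match in capitals as it reads on that strand. They lie at chr6:52271487-52271607 beyond Evx1, at chr2:73901210-73901330 and chr2:74455898-74456018 on the Hoxd13 side and at chr2:74732387-74732507 on the Hoxd1 side. They hold 0 to 3 CpGs, at GC contents of 30.6% to 38.8%.
Evx1 site: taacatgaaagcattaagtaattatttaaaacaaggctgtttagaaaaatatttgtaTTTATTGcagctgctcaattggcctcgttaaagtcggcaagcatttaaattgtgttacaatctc
Hoxd13 side, first site: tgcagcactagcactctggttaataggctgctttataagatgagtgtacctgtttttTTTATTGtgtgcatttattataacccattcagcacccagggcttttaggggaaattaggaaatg
Hoxd13 side, second site: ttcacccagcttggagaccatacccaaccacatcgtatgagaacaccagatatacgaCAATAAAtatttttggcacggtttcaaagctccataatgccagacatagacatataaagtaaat
Hoxd1 side site: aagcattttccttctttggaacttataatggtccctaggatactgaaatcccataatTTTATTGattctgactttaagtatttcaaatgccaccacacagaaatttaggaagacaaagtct

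Hox13-type matches were less frequent without Med12 than with it. They were present in 10.4% of the 2331 peaks and 17.0% of the 1427 with Med12, a difference of -6.60 points (-8.96 to -4.33), while tiled genome windows had 8.80%, intragenic peaks without Med12 9.65% and peaks at transcript starts 2.33%. Over all RNAP2 peaks the share was 6.97%. Since the match is rich in A and T, the comparison was repeated at equal GC content, an alternative chosen after seeing the data. Between 35 and 40% GC the shares were 16.3% and 27.2% (difference -10.8 points, -17.2 to -4.59), between 40 and 45% 12.9% and 17.8% (-4.91, -9.77 to -0.254) and between 45 and 50% 10.2% and 15.2% (-5.02, -9.99 to -0.323). Tiled windows had 11.2%, 7.21% and 5.23% in the same classes. Without CpG-rich peaks the shares were 11.3% and 17.7%.

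**Figure D5:**
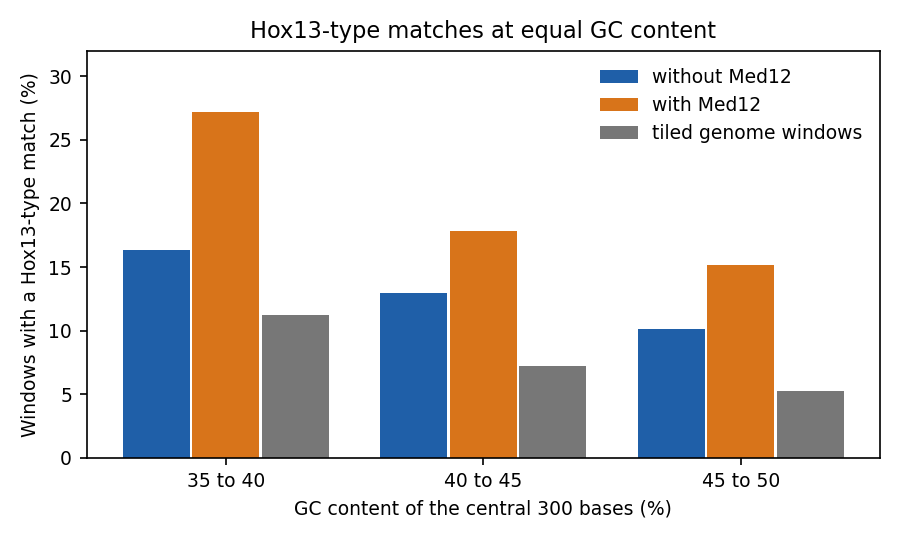
Share of 300-base windows with a Hox13-type match (y axis, %) in classes of GC content (x axis) for intergenic RNAP2 peaks without Med12 (blue), with Med12 (orange) and tiled genome windows (grey). Bars give shares without error bars. In each class the peaks without Med12 lie between the other two, with 16.3%, 27.2% and 11.2% in the lowest.

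The TATA box, TATAAA, which shares the letters ATAAA with a Hox13-type match but cannot overlap it, was found in 25.4% without and 34.1% with Med12 (difference -8.66 points, -11.7 to -5.65), and in 28.02% and 35.1% of peaks that were not CpG-rich (-7.06, -10.3 to -3.89). In the 3 GC classes the differences were -7.40, -4.81 and -2.65 points, each with an interval that included 0, and from 35 to 45% GC taken as one class the difference was -6.04 points (-10.9 to -1.21). The E-box CAGCTG was present in 19.4% and 21.0%, both above the 10.9% of tiled windows, and the interval of their difference included 0. The interval of the difference also included 0 for AP-1 (TGANTCA, 7.98% and 8.62%), TCF/LEF (TCAAAG, 21.1% and 22.1%), SOX (AACAAAG, 8.62% and 9.53%) and the CTCF core (4.89% and 4.48%). In the same order, tiled windows had 8.88%, 22.4%, 9.05% and 3.125%, and all RNAP2 peaks 6.075%, 15.8%, 6.77% and 8.08%. The TATA box was found in 27.2% of tiled windows and 17.7% of all RNAP2 peaks, and the E-box in 16.2% of the latter. The GC box GGGCGGG, which like the ETS motif holds a CpG, was found in 7.16% without Med12 and 4.34% with it (difference 2.82 points, 1.28 to 4.28). Among peaks that were not CpG-rich the values were 3.15% and 2.62%, with an interval that included 0. The ETS motif CCGGAAG was found in 2.96% and 1.33% (difference 1.63 points, 0.668 to 2.53), and in 1.79% and 0.801% of those that were not CpG-rich (difference 0.993, 0.197 to 1.75).

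The CpG-rich peaks without Med12 were compared last with the 7100 CpG-rich RNAP2 peaks at annotated starts. The GC box was present in 38.1% of the former and 46.4% of the latter (difference -8.38 points, -14.1 to -2.32), the ETS motif in 11.9% and 19.6% (-7.64, -11.1 to -3.12) and the CTCF core in 9.70% and 14.5% (-4.78, -7.89 to -0.567). SOX matches (6.34% and 2.83%) and Hox13-type matches (3.36% and 1.31%) were more frequent in the intergenic peaks, with differences of 3.51 points (1.13 to 7.11) and 2.05 points (0.440 to 4.96). So were TCF/LEF matches (10.8% and 7.55%, interval 0.0279 to 7.60 points) and TATA boxes (5.22% and 2.86%, 0.237 to 5.74). The 2 groups were not matched for GC content here, and the part of base composition in these differences was not tested. For the YY1 motif AAGATGGCG (2.24% and 4.27%) and the NRF1 core TGCGCATGC (1.87% and 2.63%) the intervals of the differences included 0.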

How the data were processed

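Sites bound by RNAP2 and Med12 were taken from the peak list of 1 library each. According to the paper's methods and the labels, the authors removed 1 base from each read, aligned the reads to mm9 (Bowtie), discarded duplicates and ran MACS 1.4.1 on each library (bandwidth 250, enrichment range 7 to 30, p-value limit 1e-05). The settings do not name the input as control. The deposited score of a peak is -log10 of the caller's p-value, multiplied by 10. It depends on depth and width, and it was compared only within the RNAP2 list. The deposited lists begin at a score of 40 and hold no counts, so the depth at a peak is unknown and no error can be given for a single score. No column of values was left without a sample.

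Genes and transcripts were those of GENCODE vM1 on mm9. Overlaps of 1 base or more were found with Python 3.11.15 and gave 2331 peaks with bedtools 2.31.1 as well. Sequences were read with pysam 0.24.0 and figures drawn with matplotlib 3.10.9. Shares have 95% Wilson intervals and differences 95% Newcombe intervals (scipy 1.17.1), which cover counting error only, since peaks of 1 library are not replicates of a condition. RefSeq starts were found by exact matches of 60 bases within 1 kb, and repeats by words of 32 bases. The code for the selection and the intervals was tested on simulated peaks.

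The peaks, gene lists and tests were chosen with earlier results of these data known. Named peaks are the 5 highest and 3 lowest scores, those just inside and outside each limit, all in the intervals beside Hoxa13 and HoxD, the highest within 200 kb of each limb regulator (up to 20 regulators), the longest runs, and the 5 highest CpG-rich peaks and peaks beyond 3′ ends. The RefSeq starts, the Chd2, Gas1, Tpt1, Nr4a1, Jun, Btg2, Nr2f1, Nr2f2, Sox4, Hrh1, Eci2 and Zfp sites and the lincRNA genes were named after their values had been seen. Alternatives were 2 score limits, a Med12 score of 50 or more, a gap of 1000 bp, 5 kb flanks, exclusion of all genes, no width limit and whole-peak composition. Leaving out repeated peaks or those near a RefSeq start was added after seeing the data. A result at one of the peaks beyond 3′ ends is not reported here.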

Additional observations from a re-analysis of the deposited data

How the results depend on the processing

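Of 106 recomputed values, over 12 results and 10 alternatives, 95 kept their direction and their side of 0 or stayed within the interval of the reported value. The number of peaks has no interval, and a wider limit was used for it, so that 1697 peaks were counted among the 95. Score limits of 50 and 100 could not change the difference at scores of 500 or more, which was also counted. With a score of at least 50 the share of peaks scoring 100 or more was 40.01% and the share near a RefSeq start 9.13%. With at least 100 there were 679 peaks, 14.6% of them near a RefSeq start, and the share scoring 100 or more has no meaning there. Counting only Med12 peaks with a score of at least 50 raised the share with Med12 within 5 kb to 17.2%, and counting Med12 within 1000 bp as overlap lowered it to 8.44%. With 5 kb flanks 6.46% lay near a RefSeq start, and without the peaks near such a start 26.9% scored 100 or more. The difference near limb regulators, whose interval included 0 throughout, turned negative with the 1000 bp gap (-0.204 points), with 5 kb flanks (-0.0628) and with all genes excluded (-0.122). The difference in CpG-rich share ran from 4.59 points over whole peaks to 19.4 at scores of at least 100, and that in Hox13-type matches from -6.20 to -7.60. With all genes excluded, the share in noncoding genes has no value. No paired analysis was possible because the series holds a single library of either antibody, and for the same reason no library could be left out. Of the 2331 peaks, 634 scored under 50, beneath the p-value limit in the methods. At scores of 500 or more the difference in CpG-rich share was 14.03 points over whole peaks, against 54.7 at their centres.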
